A study of Arabidopsis thaliana with 6 samples.

Results

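The GDSL genes of Arabidopsis thaliana encode esterases and lipases of the SGNH hydrolase superfamily, and 60 loci of this family were followed here in seedlings in which a PLETHORA transcription factor had been activated. The members were a fixed list of loci, and each was matched to the array through the platform's probe table, by gene ID and then by locus. Of the 60 loci, 54 had a probe set assigned to 1 gene only, out of 16746 such probe sets (16554 genes) and 17504 with any gene. For the locus with more than 1 such probe set, AT4G26790, the one with the highest mean over the arrays was used. The family was put forward after large rises of AT2G40250 and AT2G24560 were known from these same arrays, so the family was chosen by these 2 changes between mock and dexamethasone. Both are given as a description with no p-value, and no count over the family is used as support. Family membership rests on the list of loci. The probe table and the RefSeq gene table give most of these genes a locus code only, and no protein sequence was examined.

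GDSL enzymes carry a catalytic serine in a conserved motif near the start of the protein, and serine, glycine, asparagine and histidine residues in conserved blocks give the SGNH superfamily its name. Most plant members are secreted and act on ester bonds of lipids, of cutin and suberin, and of other wall or defence compounds. In Arabidopsis, characterised members join cutin monomers at the surface of the epidermis, lower the fatty acid content of seeds, sit in the coat of pollen grains, or act in defence.

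The 6 arrays hold RNA of whole seedlings carrying 35S::PLT2-GR, a fusion of the AP2-domain factor PLT2 to the glucocorticoid receptor under the broadly active 35S promoter. The mock seedlings carry the fusion too. Seedlings 4 days old were placed in 50 ml of liquid medium in lots of about 50, shaken overnight, and given either dexamethasone at 10 µM, which lets the fusion enter the nucleus, or DMSO (mock), and were collected 6 h later. Each group had 3 arrays, described as biological replicates. Replicate numbers are not stated to mark a shared flask, batch or day. There was no dexamethasone-treated line without the fusion among these arrays, so an effect of dexamethasone cannot be told apart from one of the fusion, and PLT2 itself was not analysed here.

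Expression was deposited as 1 log2 value per probe set and array, with array medians of 5.43 to 5.48. Pearson correlations across the 17504 probe sets were 0.990 to 0.994 between arrays of 1 group and 0.976 to 0.981 between groups. Changes are given as dexamethasone minus mock from limma, fitted over all 17504 probe sets with Benjamini-Hochberg adjustment over all of them, and a gene is said to have risen or fallen where the adjusted p is under 0.05. SE is limma's moderated standard error, SD is taken within a group of 3 arrays, and a fold is 2 to the power of the log2 change. A gene is called dim in mock where its mock mean was under the first quartile of every mock array, the lowest of which was 3.05, and folds of such genes are approximate. The number of arrays limits the precision of every value. In whole seedlings, fewer cells of a type and less RNA per cell cannot be told apart.

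Of the 54 measured GDSL genes, 6 rose and 17 fell. Among all 17504 probe sets, 9.04% rose and 9.54% fell, which is 18.6% past the threshold in both directions. Without AT2G40250 and AT2G24560, 4 of 52 rose and 17 fell. By at least 2-fold, 3 of the 54 rose, or 1 of the 52 without those genes, and 2 fell, beside 1.85% and 1.75% of all probe sets. The median log2 change was -0.14 over the 54 genes and 0.02 over all probe sets, and the median size of the change was 0.41 against 0.21. Mock and dexamethasone arrays did not overlap for 29 of the 54 genes and for 38.1% of all probe sets. No test over the family was run. The number that rose was 3 without any 1 of mock replicates 1, 2 and 3 and 4 without any 1 of the dexamethasone replicates. AT2G40250 and AT2G24560 are among those that rose in each of these fits. The number that fell was 12 (without mock replicate 1) to 16. Over all probe sets, these fits gave 828 to 1168 that rose and 896 to 1309 that fell, where the main fit gave 1582 and 1670.

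**Figure D1:**
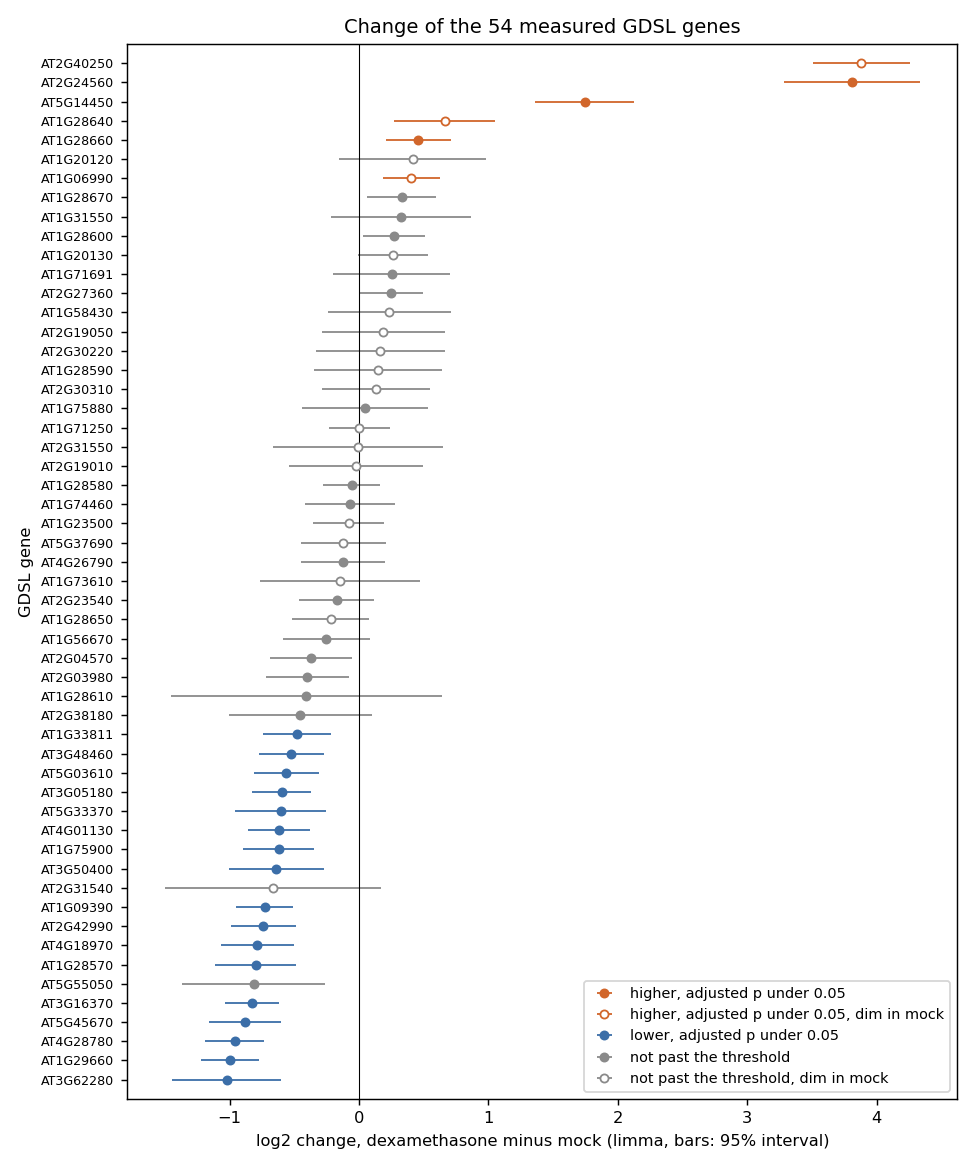
Log2 change (dexamethasone minus mock, x axis) of each of the 54 measured GDSL genes (y axis, ordered by change), with bars for limma's 95% interval; filled points are genes above the dim limit in mock and open points are genes dim in mock. AT2G40250 and AT2G24560 lie at 3.88 and 3.81, AT5G14450 at 1.74, and the 17 genes that fell lie between -1.02 and -0.48.

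The rises were led by 3 genes whose arrays were well apart. AT2G40250, which encodes an SGNH-type esterase, had log2 values of 2.60, 3.06 and 2.90 in the mock arrays and 6.99, 6.62 and 6.60 in the dexamethasone arrays. Its lowest dexamethasone array was thus far above its highest mock array, and its mock mean of 2.85 counted as dim. The log2 change was 3.88 (SE 0.16), an approximate 14.8-fold difference and the 5th largest rise among the 16746 probe sets with 1 gene. AT2G24560, a GDSL lipase gene, had values of 3.43, 2.78 and 3.56 in mock and 7.14, 6.81 and 7.25 with dexamethasone. Mock replicate 2 was the lowest of its arrays, and the mock mean of 3.26 (SD 0.42, n = 3) was just above the dim limit. The log2 change was 3.81 (SE 0.22), a 14.0-fold difference and the 6th largest rise, and it was 3.57 to 3.96 when any 1 array was left out. For AT2G40250 that range was 3.76 to 3.99.

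AT5G14450 differed from both in being well above the dim limit before treatment. Its values were 7.79, 7.74 and 7.61 in mock and 9.81, 9.23 and 9.33 with dexamethasone, where replicate 1 was the highest. It rose 3.35-fold (log2 change 1.74, SE 0.16, adjusted p 0.00104 by limma), with means of 7.71 (SD 0.09, n = 3) and 9.46 (SD 0.31, n = 3). The change was 1.57 to 1.86 with 1 array left out, and the adjusted p stayed at or under 0.00661.

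The other 3 rises were smaller, and each lost its call when single arrays were left out. AT1G28660, a gene of a tandem cluster described further on, rose from 10.13, 10.07 and 10.16 in mock to 10.62, 10.70 and 10.40 with dexamethasone (log2 change 0.46, limma adjusted p 0.0267). Leaving out mock replicate 1, 2 or 3 gave an adjusted p of 0.0812, 0.0852 or 0.0631, and leaving out dexamethasone replicate 1 or 2 gave 0.0761 or 0.0775. AT1G28640, of the same cluster, had 1.63, 1.95 and 1.89 in mock and 2.23, 2.80 and 2.43 with dexamethasone (log2 change 0.66, limma adjusted p 0.0335). Both of its group means were under the first quartile of all arrays of their group, so it was dim with and without treatment. Leaving out mock replicate 1, 2 or 3 gave an adjusted p of 0.106, 0.0644 or 0.0760, and leaving out dexamethasone replicate 2 or 3 gave 0.0697 or 0.0691. AT1G06990 was dim in both groups as well, at 1.88, 1.87 and 1.79 in mock and 2.36, 2.16 and 2.24 with dexamethasone (log2 change 0.40, limma adjusted p 0.0259). Leaving out mock replicate 1, 2 or 3 gave an adjusted p of 0.0756, 0.0704 or 0.0783, and leaving out dexamethasone replicate 1 or 3 gave 0.0726 or 0.0570.

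**Figure D2:**
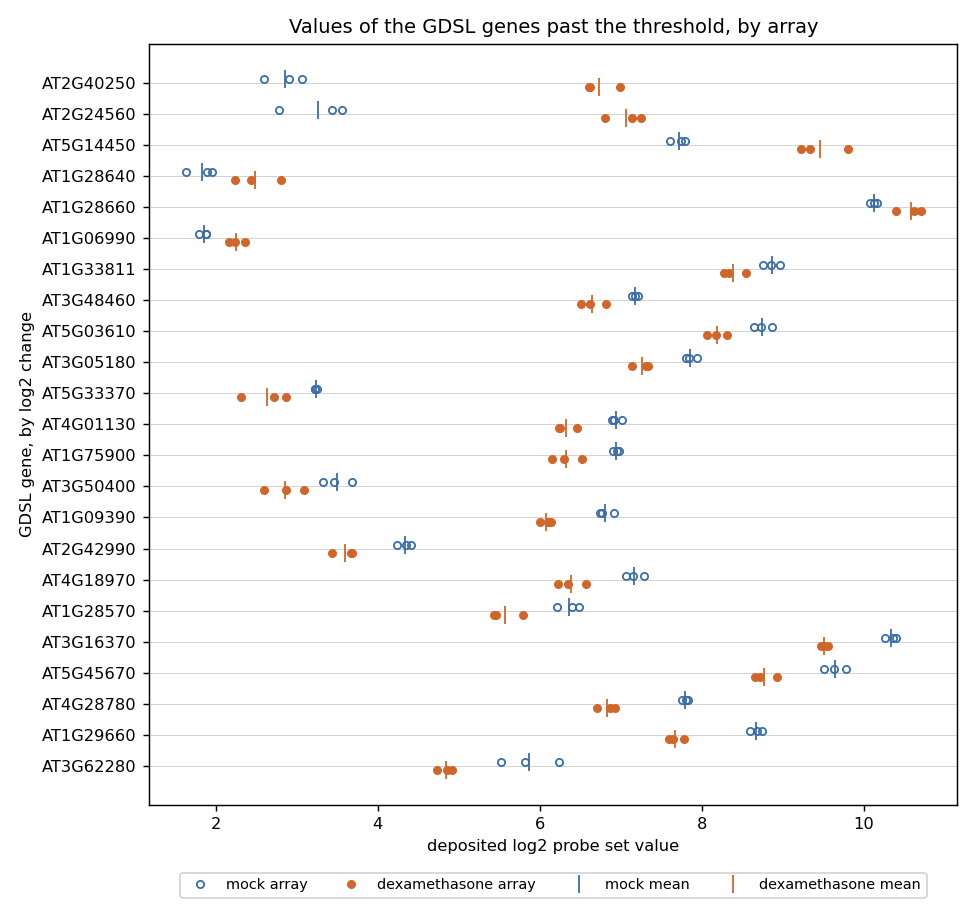
Deposited log2 values (x axis) of the 23 GDSL genes past the threshold (y axis, ordered by log2 change); open blue circles are the 3 mock arrays, filled orange circles the 3 dexamethasone arrays, and vertical ticks the group means. The groups of AT2G40250, AT2G24560 and AT5G14450 are far apart, while those of the genes that fell differ by 1.02 or less.

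Several of the genes that fell have been characterised. The SEED FATTY ACID REDUCER genes encode GDSL enzymes that lower the fatty acid content of seeds when overexpressed, and of the 4 measured, 3 fell, beside 9.54% of all probe sets. AT4G18970 (SFAR5) had 7.29, 7.06 and 7.15 in mock and 6.22, 6.35 and 6.57 with dexamethasone, so every treated array lay below every mock array. It fell by 0.79 on the log2 scale (SE 0.12, limma adjusted p 0.00616). AT2G42990 (SFAR3) had 4.41, 4.24 and 4.35 in mock and 3.44, 3.68 and 3.67 with dexamethasone, and it fell by 0.74 (SE 0.11, limma adjusted p 0.00501). AT3G48460 (SFAR4) had 7.18, 7.21 and 7.13 in mock and 6.51, 6.62 and 6.82 with dexamethasone, and it fell by 0.52 (limma adjusted p 0.0166). The call for AT3G48460 was lost without mock replicate 1 (0.0598), mock replicate 2 (0.0577) or dexamethasone replicate 2 (0.0515). RXF26, at locus AT1G58430 and also known as SFAR2, was dim in mock with a mean of 2.17, and its change of 0.23 did not pass (95% interval -0.24 to 0.71). AT1G54790, known as SFAR1, was not analysed here.

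AT5G33370 (CUS2) is a cutin synthase gene needed to maintain the cuticular ridges of sepals. Its values were 3.22, 3.25 and 3.22 in mock and 2.30, 2.71 and 2.86 with dexamethasone, where all 3 arrays were under the first quartile. It fell by 0.61 on the log2 scale (limma adjusted p 0.0311), and its low values make the size approximate. Leaving out mock replicate 1, 2 or 3 gave an adjusted p of 0.0885, 0.0875 or 0.0816, and leaving out dexamethasone replicate 2 gave 0.0634. LTL1, for a lipase linked to lithium tolerance, and FXG1, reported to have fucosidase activity, were not analysed here.

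The extracellular lipase genes EXL1 and EXL3 belong to a group known from the pollen coat. They lie in 1 tandem cluster as defined further on, with 4 annotated genes between them. AT1G75900 (EXL3) had 6.98, 6.91 and 6.95 in mock and 6.53, 6.15 and 6.29 with dexamethasone, and it fell by 0.62 (SE 0.12, limma adjusted p 0.0124). AT1G75880 (EXL1) had 4.73, 5.43 and 4.63 in mock, where replicate 2 stood above the rest, and 4.97, 5.00 and 4.95 with dexamethasone. Its change of 0.05 did not pass, with a 95% interval of -0.44 to 0.53. Whether the pair differed in response was not tested.

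The largest falls were of genes with no symbol beyond the locus code. AT3G62280 had 5.82, 5.53 and 6.24 in mock and 4.86, 4.73 and 4.92 with dexamethasone. The mock arrays were spread (SD 0.36, n = 3) and the treated ones close together (SD 0.09, n = 3). It was 2.03-fold lower (log2 change -1.02, SE 0.18, limma adjusted p 0.0102), and its change was -1.19 to -0.84 with 1 array left out. AT1G29660 was 2.00-fold lower, with 8.60, 8.68 and 8.75 in mock and 7.60, 7.78 and 7.64 with dexamethasone (SE of the log2 change 0.10, limma adjusted p 0.0011). AT4G28780 was 1.95-fold lower, with 7.83, 7.80 and 7.75 in mock and 6.71, 6.92 and 6.87 with dexamethasone (log2 change -0.96, limma adjusted p 0.00123). For both, the difference between groups was many times the SD within a group.

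AT5G45670 had 9.79, 9.51 and 9.64 in mock and 8.65, 8.93 and 8.71 with dexamethasone and was 1.84-fold lower (limma adjusted p 0.00384). AT3G16370, with 10.40, 10.37 and 10.26 in mock and 9.47, 9.56 and 9.52 with dexamethasone, was 1.77-fold lower (limma adjusted p 0.00166). Each remained past the threshold in every fit with 1 array left out, as did AT3G62280, AT1G29660 and AT4G28780. AT1G09390 fell by 0.73 on the log2 scale, from a mean of 6.81 to 6.08. AT4G01130 fell by 0.62, from 6.94 to 6.32, and AT3G05180 fell by 0.60, from 7.86 to 7.26. These 3 genes also kept their calls with any 1 array left out, and their limma adjusted p was 0.00329 to 0.00777 with all arrays.

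Among the smaller falls, AT5G03610 fell by 0.56 (limma adjusted p 0.0133), and its adjusted p was 0.0527 without mock replicate 1. AT3G50400 had 3.46, 3.68 and 3.32 in mock and 2.59, 2.87 and 3.08 with dexamethasone, close to the first quartile of the arrays, and fell by 0.64 (limma adjusted p 0.0303). Leaving out mock replicate 1 or 2 gave an adjusted p of 0.0827 or 0.0914, and leaving out dexamethasone replicate 1 or 2 gave 0.0730 or 0.0753. AT1G33811, named here after its values were seen, had the smallest change of the 17 and fell by 0.48 (limma adjusted p 0.0264). Leaving out mock replicate 1, 2 or 3 gave an adjusted p of 0.0813, 0.0504 or 0.0809, and leaving out dexamethasone replicate 2 or 3 gave 0.0787 or 0.0694. Among the 17 genes, dexamethasone replicate 1 was the lowest of the treated arrays for 12, replicate 2 for 3 and replicate 3 for 2. The same count over all probe sets that fell was not made.

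The falls lay mostly among genes with higher array values, as did the falls among all probe sets with 1 gene. With all probe sets of 1 gene parted into tertiles by their mean over the 6 arrays, 9 of the 14 GDSL genes in the highest tertile fell, beside 12.7% of all such probe sets in that tertile. In the middle tertile 6 of 21 fell, beside 14.6%, and in the lowest tertile 2 of 19, beside 1.36%. All such probe sets that fell numbered 707, 816 and 76 from the highest tertile to the lowest. Rises numbered 2 in each tertile, beside 13.3%, 11.1% and 3.01% of all probe sets from the highest tertile to the lowest. The 2 in the middle tertile were AT2G40250 and AT2G24560, the genes by which the family was chosen. Their mock means, 2.85 and 3.26, were under the lower tertile boundary of 3.53, so their treated arrays placed them there. These shares describe a family chosen with its results known.

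**Figure D3:**
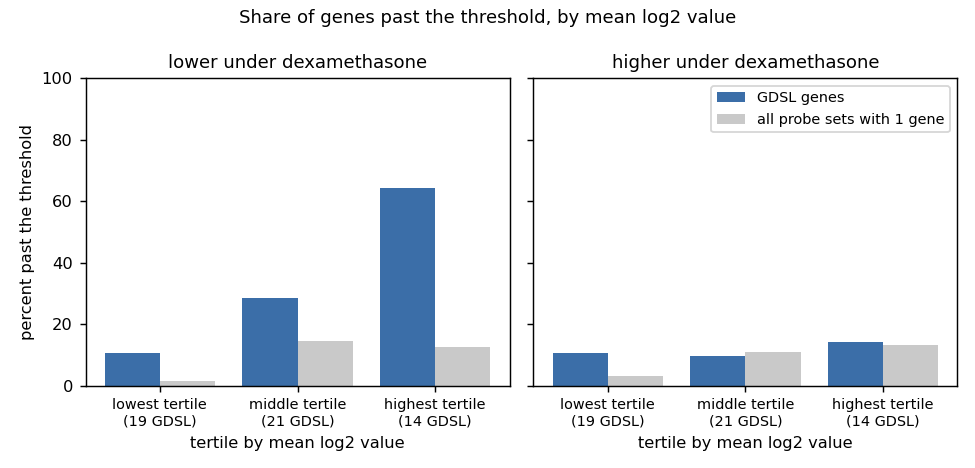
Percent of genes past the threshold (y axis) that were lower (left) or higher (right) under dexamethasone, in tertiles by mean log2 value (x axis); blue bars are GDSL genes, with their number under each tertile, and grey bars all probe sets with 1 gene. In the highest tertile 64.3% of the GDSL genes and 12.7% of all probe sets were lower. The GDSL genes that were higher in the middle tertile are AT2G40250 and AT2G24560, by which the family was chosen.

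Of the 60 loci, 20 lie in 6 tandem clusters, taken as runs of members with at most 5 annotated genes between neighbours in the RefSeq gene order of TAIR10.1, and 18 of these were measured. Of the 18, 2 rose, 3 fell and 13 did not pass, and of the 36 measured genes outside clusters 4 rose and 14 fell, beside 9.04% that rose and 9.54% that fell among all probe sets. Of the 4 outside clusters that rose, AT2G40250 and AT2G24560 are the genes by which the family was chosen. The others were AT5G14450 and AT1G06990. Dim in mock were 9 of the 18 and 9 of the 36. The largest cluster runs from AT1G28570 to ARAB-1 (AT1G28670) and has 9 members, all measured. Of these 9, 2 rose, 1 fell and 6 did not pass. AT1G28570, at one end, had 6.49, 6.39 and 6.21 in mock and 5.46, 5.80 and 5.43 with dexamethasone, and it fell by 0.80 on the log2 scale (SE 0.13, limma adjusted p 0.00851). AT1G28580, the next gene, had a change of -0.06 with a 95% interval of -0.28 to 0.17. Toward the other end AT1G28640 and AT1G28660 rose, as given above, and both lost their calls when single arrays were left out. The call of AT1G28570 was kept with any 1 array left out.

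ARAB-1 lies beside AT1G28660 and had 8.52, 8.35 and 8.20 in mock and 8.58, 8.76 and 8.71 with dexamethasone. The arrays did not overlap, but its change of 0.33 did not pass (limma adjusted p 0.0909, 95% interval 0.06 to 0.60). AT1G28600 had a change of 0.27 (95% interval 0.03 to 0.51) that did not pass either. AT1G28610 had the widest interval of the cluster, from -1.46 to 0.64, and its dexamethasone replicate 1 read 3.11 while replicates 2 and 3 read 4.76 and 4.71. AT1G28590 and AT1G28650 were dim in mock, at means of 2.20 and 2.71, and neither passed. Hybridisation of 1 probe set with transcripts of similar neighbours was not checked.

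**Figure D4:**
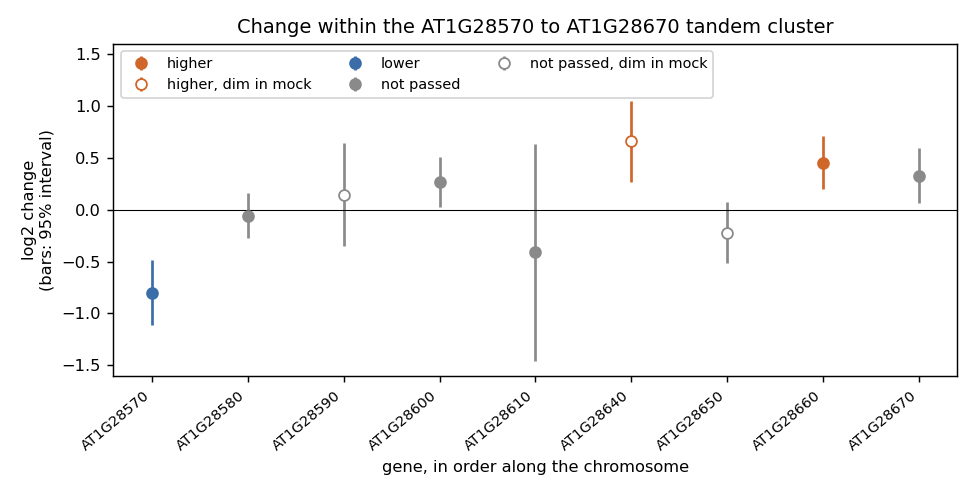
Log2 change (y axis, dexamethasone minus mock, bars for limma's 95% interval) of the 9 members of the cluster in their order along the chromosome (x axis); open points are dim in mock. AT1G28570 lies at -0.80, AT1G28640 at 0.66 and AT1G28660 at 0.46, and the intervals of AT1G28580, AT1G28590, AT1G28610 and AT1G28650 span 0.

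In the smaller clusters, AT1G29660 fell as described, and its neighbour AT1G29670 shares its probe set with another gene and was not counted. In the EXL pair 1 of 2 fell. The clusters of AT1G20120 with AT1G20130, of AT2G19010, AT2G19050 and AT2G19060, and of AT2G31540 with AT2G31550 had 6 measured members, all dim in mock. None passed, beside 4.01% of all probe sets with 1 gene that were dim in mock. AT2G31540 had the widest spread of these in mock, at 2.38, 2.63 and 3.73. AT1G20130 had non-overlapping arrays, with a change of 0.26 (95% interval -0.01 to 0.53).

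In all, 18 of the 54 genes were dim in mock. Of these, AT2G40250, AT1G28640 and AT1G06990 rose and none fell, beside 3.66% that rose and 0.351% that fell among all probe sets with 1 gene that were dim in mock. AT2G40250 is a gene by which the family was chosen. Without it, only AT1G28640 and AT1G06990 rose among 17 dim genes, and both lost their calls when single arrays were left out. The other 15 had changes from -0.66 to 0.41. Besides those in clusters they were AT1G23500, AT1G58430, AT1G71250, AT1G73610, AT2G30220, AT2G30310 and AT5G37690. AT1G71250 had nearly the same mean in both groups, 2.79 and 2.79 (95% interval of the change -0.23 to 0.24). The values do not show whether dim genes were expressed, as signal over background was not analysed here.

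Of the 36 genes above the dim limit, 20 passed, AT2G24560 among them, beside 24.7% of all probe sets with 1 gene above that limit. The other 16 did not pass, with changes from -0.82 to 0.33. AT5G55050, named after its values were seen, came closest, with 6.80, 5.95 and 6.18 in mock and 5.20, 5.65 and 5.64 with dexamethasone. Its arrays did not overlap and its change was -0.82 (SE 0.24, limma adjusted p 0.0532), and it passed without mock replicate 2 (0.0458), with quantile normalization (0.0497), with median centring (0.0492), without the dimmest 30% (0.0322) and with an intensity trend (0.0111). Over all refits its adjusted p was 0.0111 to 0.141. AT2G03980 (-0.40) and AT2G27360 (0.24) also had non-overlapping arrays without passing, at limma adjusted p of 0.0850 and 0.157. AT2G38180 had a change of -0.45, and its dexamethasone replicate 1 read 4.89 while replicates 2 and 3 read 5.68 and 5.75. Both probe sets of AT4G26790 were close to 0, with changes of -0.12 and -0.14.

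Other genes of the extracellular lipid pathways were poorly covered by the probe table. Of 54 listed cutin, suberin and wax genes, 4 were measured. Of the 4, 1 rose and none fell, beside 9.04% that rose and 9.54% that fell among all probe sets. Dim in mock were 3 of the 4, and among all dim probe sets with 1 gene 3.66% rose and 0.351% fell. SHN3, for an AP2-domain activator of cutin genes, was dim in both groups at 2.21, 2.28 and 2.11 in mock and 2.67, 2.51 and 2.59 with dexamethasone (log2 change 0.39, limma adjusted p 0.0314), and that call was lost in each of the 6 fits with 1 array left out. The related activator gene SHN2 (0.29), the suberin gene FACT (-0.25), for an acyltransferase that makes alkyl caffeates, and the wax ester synthase gene WSD1 (0.12) did not pass. A further 11 loci outside the list carry GDSL or extracellular lipase in their RefSeq symbol or synonyms, and 1 of them was measured. This was AT1G54010 (GLL23), with a change of -0.10 (95% interval -0.31 to 0.10).

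The tissue label was compared with markers, of which 5 of 32 were measured, in 3 of 8 lists. The leaf genes RCA and LHCB4.1, 2 of 6 in their list, had a mean log2 value of 10.65 to 10.67 in mock and 10.34 to 10.47 with dexamethasone. RCA fell by 0.32 (limma adjusted p 0.0475), a call lost with any 1 array left out (0.0701 to 0.139). The root hair expansin genes EXPA7 and EXPA18, 2 of 4 in their list, both fell. EXPA7 fell by 1.23 and EXPA18 fell by 1.34 on the log2 scale, and their mean was 6.08 to 6.34 in mock and 4.61 to 5.28 with dexamethasone. The tapetum gene A9, 1 of 3 in its list, was dim in every group, at 2.53 to 2.78 in mock and 2.44 to 3.10 with dexamethasone. The part of these markers' cell types in the falls of GDSL genes was not tested.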

How the data were processed

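The members and the lists were chosen with earlier results of these data known. Values were used on the log2 scale as deposited. The submitters' processing notes name RMA and limma 3.24.15 and do not say what each was used for. Beyond the name RMA, how probes were summarised is not known from the labels, and neither is the genome build. The platform's probe table pairs 17504 of the probe sets with a gene, 758 of them with several, and the other 20904 are unnamed here. Of those with 1 gene, 16601 matched RefSeq's TAIR10.1 table by gene ID. Its gene order was used and its coordinates were not.

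The comparison was a two-sided limma 3.58.1 fit (lmFit and eBayes, R 4.3.3) without further normalization, and the code was tested on simulated data. Named were members past the threshold (up to 15 rises and 15 falls), members of tandem clusters, dim members, characterised members, and leading genes of the cutin, suberin and wax list. Alternatives were a replicate block, quantile normalization, median centring, leaving out the dimmest 30%, an intensity trend, robust eBayes, array weights, all probe sets, 1 probe set per gene, stricter thresholds and leaving out each array.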

Additional observations from a re-analysis of the deposited data

Results flagged for a closer look

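A probe set assigned to both AT1G29670 and AT1G29680 was part of the fit but was not counted among the GDSL genes, because it has several genes. Its signal differed between mock and dexamethasone. Its values were 9.78, 9.73 and 9.76 in mock and 9.11, 9.19 and 9.18 with dexamethasone, a log2 change of -0.59 (SE 0.08, limma adjusted p 0.00451). It was past the threshold in each fit with 1 array left out (adjusted p 0.0139 to 0.0240). AT1G29670 is a GDSL gene and the tandem neighbour of AT1G29660, which also fell. The other 4 probe sets that members share with another gene did not pass. Their log2 changes were -0.43 for AT1G09400 with AT1G09390 (limma adjusted p 0.296), -0.60 and 0.06 for the pair of probe sets of AT2G19060 with SHT (0.119 and 0.787), and -0.01 for AT3G26430 with ATRZ-1A (0.965). How the signal of AT1G29670 and AT1G29680 divides between them was not tested.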

How the results depend on the processing

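Of the 23 GDSL genes past the threshold, 15 passed in every refit that tested them at an adjusted p of 0.05. Of the 15, 3 had risen and 12 had fallen, and no called gene changed direction. The 3 were AT5G14450 and the genes by which the family was chosen, AT2G40250 and AT2G24560. Of the 8 others, 3 had risen and 5 had fallen. At an adjusted p of 0.01, 3 genes rose and 10 fell, and the same count over all probe sets was not made. At 0.05 with a limit of 1 on the size of the log2 change, 3 rose and 2 fell. Of all probe sets, 1.85% rose and 1.75% fell by that limit. In both cases those that rose were again AT5G14450, AT2G40250 and AT2G24560. Leaving out each array gave 3 to 4 that rose and 12 to 16 that fell, and those fits have fewer arrays. Over all probe sets, those fits gave 828 to 1168 that rose and 896 to 1309 that fell, where the main fit gave 1582 and 1670. The replicate block gave 4 that rose and 15 that fell, all among the main calls, and over all probe sets 1173 rose and 1244 fell with it. Deviations from the group means correlated at -0.00986, -0.0163 and 0.0305 between arrays of the same number, so a pairing by number was not seen. The other settings gave 4 to 6 that rose and 15 to 19 that fell. Over the probe sets that each of them tested, 1518 to 2423 rose and 1474 to 2447 fell. Of the 4 cutin, suberin and wax genes, 0 rose with the replicate block, quantile normalization, the dim filter (which leaves SHN3 out), the intensity trend, all probe sets, either stricter threshold, or any array left out (0 to 0). Apart from fewer arrays, more or fewer probe sets, and stricter limits, the cause was not tested. Without a measure of signal over background, the folds of the 18 dim genes stay approximate.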

Other observations

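The protein-coding neighbours of the 3 GDSL genes that rose 2-fold or more were read in RefSeq gene order, 2 on each side, a choice made after the data were seen. Of these 12 genes, 10 had a probe set of their own, all above the dim limit in mock. Of the 10, 3 passed, beside 18.6% of all probe sets and 24.7% of those with 1 gene above the dim limit. Beside AT2G24560, AT2G24550 fell by 0.81 on the log2 scale (SE 0.10, limma adjusted p 0.00276), from a mean of 8.24 to 7.42, and its call was kept with any 1 array left out. Beside AT2G40250, AT2G40240 rose by 0.54 (limma adjusted p 0.0287), and its adjusted p was 0.0503 to 0.0901 without any 1 array except dexamethasone replicate 3 (0.0299). Beside AT5G14450, AT5G14440 rose by 0.33 (limma adjusted p 0.0318), and its adjusted p was 0.0562 to 0.0915 with any 1 array left out. The other 7 neighbours did not pass, with changes from -0.33 to 0.14.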
